A study of Mus musculus with 9 samples.

Results

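The C/EBP transcription factors of RAW264.7 macrophages were examined as a family. The 6 genes Cebpa, Cebpb, Cebpd, Cebpe, Cebpg and Ddit3 were chosen by name from the 55487 gene identifiers of the data, and all 6 passed the filter on low counts that left 14312 genes. RAW264.7 is an established line of mouse macrophages, and all cells were used unstimulated. The 3 genotypes, with 3 libraries each, were wild-type cells, cells labelled CEBPD KO (knock-out) and cells labelled CEBPD TAD, which lack the C/EBPδ transactivation domain (ΔTAD). Cas9 and guide pairs on either side of that domain made both mutants, and the knock-out cells are clones in which the same kind of deletion was out of frame. The mutants were grown from single sorted cells and selected with puromycin. The study also speaks of wild-type clones, but nothing ties a library to a clone, so differences between clones and between genotypes cannot be told apart.

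C/EBP proteins bind DNA as dimers through a basic region followed by a leucine zipper, and any member can pair with any other. C/EBPα drives the commitment of myeloid cells, C/EBPβ is an abundant regulator in macrophages, C/EBPδ is induced strongly by inflammatory stimuli, and C/EBPε serves the maturation of granulocytes. C/EBPγ lacks a transactivation domain and mainly lowers the activity of its partners, and CHOP, the product of Ddit3, is a stress-induced member that mainly inhibits the others by dimerization and binds poorly to the usual C/EBP site.

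The coding bases of the basic region are shown first, because this DNA contact surface is what lets the family members compete for the same sites. Each stretch holds 60 bases of the reference transcript (GENCODE, GRCm38), written 5′ to 3′, with capitals for the bases that differ from Cebpd at the same place.
Cebpd (chr16:15887916-15887975, plus strand): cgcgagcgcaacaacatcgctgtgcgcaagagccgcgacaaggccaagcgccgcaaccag
Cebpb (chr2:167689706-167689765, plus strand): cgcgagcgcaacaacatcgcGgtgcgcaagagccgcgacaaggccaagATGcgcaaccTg
Cebpa (chr7:35120286-35120345, plus strand): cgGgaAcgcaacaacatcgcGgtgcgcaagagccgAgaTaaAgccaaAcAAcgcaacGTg
Cebpe (chr14:54710695-54710754, minus strand): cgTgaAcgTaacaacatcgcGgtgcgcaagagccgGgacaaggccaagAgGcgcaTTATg
Cebpg (chr7:35050573-35050632, minus strand): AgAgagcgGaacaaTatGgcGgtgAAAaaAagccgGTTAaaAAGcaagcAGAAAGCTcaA
Ddit3 (chr10:127295897-127295956, plus strand): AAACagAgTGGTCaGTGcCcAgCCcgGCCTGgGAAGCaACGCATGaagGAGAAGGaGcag
In bases, Cebpb was the closest to Cebpd with 55 of 60 identical. Base identity also counts codon choices that leave the amino acid unchanged, so it does not rank the likeness of the encoded proteins. Cebpa and Cebpe each shared 49 bases with Cebpd, and Cebpg shared 34. The stretch of Ddit3 was located by the best ungapped match and shared 18 bases.

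The libraries held 16113306 to 20981829 counts on genes. ΔTAD replicate 1 stood apart, with 11.7% of its counts on ribosomal RNA genes against 0.346% to 1.22% in the other 8 libraries. Levels are given in CPM, computed on library sizes scaled by the trimmed mean of M values (TMM). All 8 macrophage markers (Cd68, Lyz2, Csf1r, Adgre1, Itgam, Spi1, Fcgr1 and Ptprc) lay above 3 counts, and their summed level was 2616 to 2764 CPM in the wild-type, 3629 to 3980 CPM in the knock-out and 6009 to 6163 CPM in the ΔTAD libraries. Most of this rise was that of Lyz2, and the other 7 markers summed to 1517 to 1580, 1622 to 1700 and 1883 to 1918 CPM. Fcgr1 was called lower in both mutants, at 39.5, 17.8 and 28.9 CPM on average, and Itgam, at 34.3, 30.7 and 31.1 CPM, was called in neither. Of the 8 granulocyte precursor markers, 2 exceeded 3 counts in some library, at a summed 0.490 to 1.52 CPM, while Mpo, Elane, Ltf, Camp, Ngp and S100a9 did not. None of the 5 fibroblast, 5 lymphocyte and 4 epithelial markers exceeded 3 counts. In these bulk samples, fewer cells that express a gene and less RNA per cell cannot be told apart.

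The first question was which C/EBP transcripts differed between the genotypes. Genes with an adjusted p under 0.01 in edgeR's quasi-likelihood test were called, with Benjamini-Hochberg adjustment over all 14312 genes. In knock-out against wild-type macrophages, 2 of the 6 genes were called, where 45.2% of all tested genes were called, and both were higher (22.8% of all genes were called higher). In ΔTAD against wild-type macrophages, 3 of the 6 were called, all higher, where 49.7% of all genes were called, 26.3% higher and 23.4% lower. In knock-out against ΔTAD macrophages, 3 were called, 2 of them higher and 1 lower, where 33.0% of all genes were called, 13.9% higher and 19.1% lower. In all 3 comparisons the number of members called was thus near the number that the background gives. The median log2 fold change of the 6 genes was 0.09, 0.07 and 0.12 in the 3 comparisons, beside medians of -0.00105, -0.00332 and -0.03 over all tested genes. The comparisons share libraries with each other, so their values are given side by side and are not independent. Without ΔTAD replicate 1, the same numbers of members were called, 2, 3 and 3, and in ΔTAD against wild-type macrophages Cebpa stood at 2.04, Cebpe at 1.13 and Cebpg at 0.18 on the log2 scale.

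**Figure D1:**
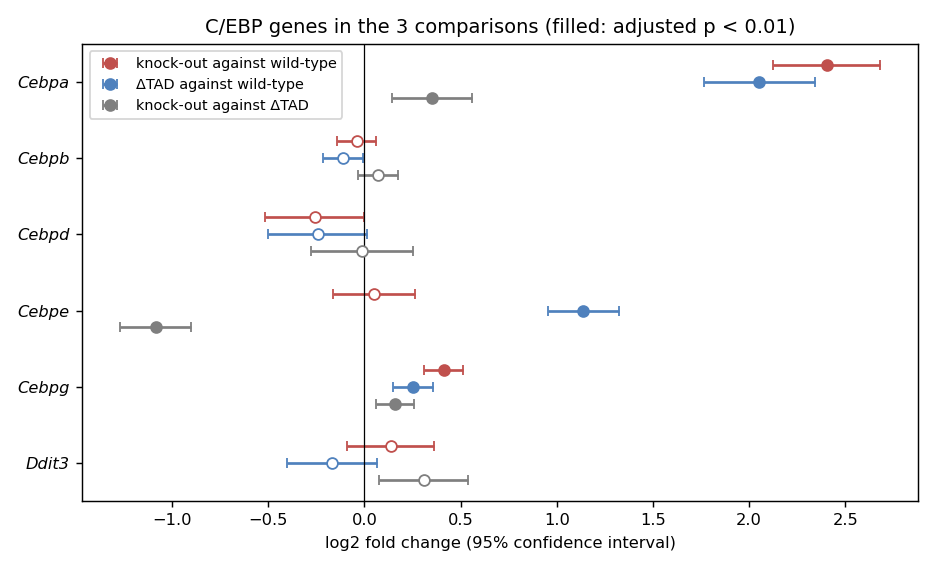
log2 fold changes (horizontal axis) of the 6 C/EBP genes in the 3 comparisons, with bars for 95% confidence intervals and filled points for an adjusted p under 0.01. Cebpa lies at 2.40 and 2.05 against wild-type, and the interval of Cebpe includes 0 in knock-out against wild-type but not in the other comparisons.

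Cebpd, the targeted gene (ENSMUSG00000071637, chr16:15887286-15891031, plus strand), kept its transcript in both mutants. It lay at 6.13, 7.29 and 6.12 CPM in the wild-type, 5.22, 5.50 and 5.61 CPM in the knock-out and 4.90, 5.23 and 6.19 CPM in the ΔTAD libraries. All 3 knock-out libraries were below the lowest wild-type library, and the ΔTAD libraries overlapped it. The fitted log2 change was -0.26 (95% confidence interval -0.52 to 0.000255, adjusted p = 0.0850) in knock-out cells and -0.24 (-0.50 to 0.0113, adjusted p = 0.0931) in ΔTAD cells by edgeR's quasi-likelihood test, and neither was called. The deletion leaves most of the exon in place, so that the total count of the gene does not check the genotype labels. On the opposite strand, Spidr shares 562 of the 3746 exon bases and was itself called higher in both mutants, by 0.22 and 0.19 on the log2 scale, and the strand setting of the counting is not given in the sources used here.

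Cebpa showed the largest difference among the members in both mutants. The gene (ENSMUSG00000034957, chr7:35119293-35121928, plus strand) encodes C/EBPα. It had 42 to 65 counts in the wild-type, 249 to 315 in the knock-out and 174 to 273 in the ΔTAD libraries. Its level was 2.09, 3.76 and 3.27 CPM in the wild-type, 16.6, 16.9 and 14.1 CPM in the knock-out and 12.2, 12.1 and 12.99 CPM in the ΔTAD libraries. All mutant libraries exceeded every wild-type library, and the knock-out libraries exceeded the ΔTAD libraries without overlap. Cebpa rose 5.29-fold in knock-out macrophages (log2 fold change 2.40 ± 0.135 (SE, n = 3 per genotype), adjusted p = 1.25e-13, edgeR's quasi-likelihood test) and 4.15-fold in ΔTAD macrophages (2.05 ± 0.140, adjusted p = 4.41e-12). The difference between the mutants was 0.35 ± 0.101 on the log2 scale (adjusted p = 0.00660). That call was lost in 5 of 18 alternative analyses: with DESeq2 (adjusted p = 0.0112) and without knock-out replicate 1 (0.0344), knock-out replicate 2 (0.0348), ΔTAD replicate 2 (0.0303) or ΔTAD replicate 3 (0.0104).

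**Figure D2:**
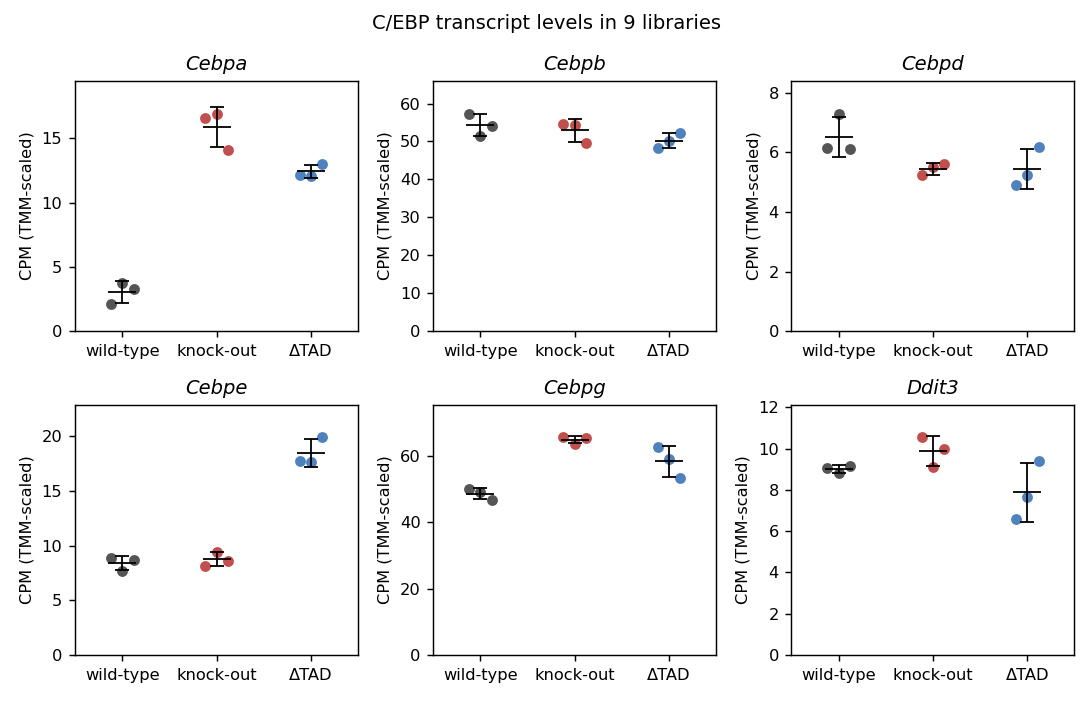
Level of each C/EBP transcript in CPM (vertical axis, from 0) in the 3 libraries of each genotype; points are libraries, and the bar and whiskers are the mean and SD. For Cebpa the highest wild-type library (3.76 CPM) lies far below the lowest mutant library (12.1 CPM), and Cebpe is high in ΔTAD libraries alone, at 17.7 to 19.9 CPM.

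Cebpe, which encodes C/EBPε (ENSMUSG00000052435, chr14:54710360-54712174, minus strand), separated the mutants from each other. It lay at 8.82, 7.64 and 8.72 CPM in the wild-type, 8.17, 9.43 and 8.61 CPM in the knock-out and 17.8, 17.7 and 19.9 CPM in the ΔTAD libraries. Wild-type and knock-out libraries overlapped, whereas each ΔTAD library lay above all others. The gene rose 2.20-fold in ΔTAD macrophages (log2 fold change 1.14 ± 0.0892 (SE, n = 3 per genotype), adjusted p = 5.97e-11, edgeR's quasi-likelihood test). In knock-out macrophages the fitted log2 change was 0.05, with a 95% confidence interval of -0.16 to 0.26 (adjusted p = 0.700). The direct comparison gave a level 2.12-fold higher in ΔTAD than in knock-out macrophages (adjusted p = 5.92e-10), and this call held under all 18 alternatives.

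Cebpb, which encodes C/EBPβ (ENSMUSG00000056501, chr2:167688915-167690418, plus strand), differed little in CPM. Its level was 57.3, 51.6 and 54.1 CPM in the wild-type, 54.7, 54.4 and 49.5 CPM in the knock-out and 48.3, 50.2 and 52.2 CPM in the ΔTAD libraries, and the 3 genotypes overlapped. The fitted log2 change was -0.04 (95% confidence interval -0.14 to 0.06) in knock-out cells and -0.11 (-0.21 to -0.00988) in ΔTAD cells. Neither was called (adjusted p = 0.517 and 0.0548, edgeR's quasi-likelihood test), though the value for ΔTAD passed with scaling by library size alone (-0.20, adjusted p = 0.00870). Tmem189 on the opposite strand shares 312 of the 1504 exon bases and was not called.

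Cebpg, which encodes the partner without a transactivation domain (ENSMUSG00000056216, chr7:35046422-35056573, minus strand), was moderately higher in both mutants. It lay at 50.2, 49.1 and 46.8 CPM in the wild-type, 65.6, 63.6 and 65.5 CPM in the knock-out and 62.7, 59.1 and 53.4 CPM in the ΔTAD libraries. Every mutant library exceeded every wild-type library, and the knock-out libraries exceeded the ΔTAD libraries. Cebpg rose 1.33-fold in knock-out (log2 fold change 0.41 ± 0.0490 (SE, n = 3 per genotype), adjusted p = 9.87e-08) and 1.19-fold in ΔTAD macrophages (0.25 ± 0.0495, adjusted p = 0.000103) by edgeR's quasi-likelihood test. The second call was lost with scaling by library size alone (0.17, adjusted p = 0.0251). The mutants differed by 0.16 on the log2 scale (adjusted p = 0.00821), a call lost in 7 of 18 alternatives: with DESeq2 (adjusted p = 0.0168) and without any 1 of the knock-out replicates (0.0133 to 0.0369), ΔTAD replicate 2 (0.0203), ΔTAD replicate 3 (0.125) or wild-type replicate 2 (0.0116).

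Ddit3 (ENSMUSG00000025408, chr10:127290774-127296288, plus strand) was not called in any comparison. CHOP transcript lay at 9.07, 8.80 and 9.14 CPM in the wild-type, 10.5, 9.12 and 9.97 CPM in the knock-out and 6.58, 7.63 and 9.42 CPM in the ΔTAD libraries. The ΔTAD libraries spread over the widest range and overlapped both other genotypes. The fitted log2 change was 0.14 (95% confidence interval -0.09 to 0.36, adjusted p = 0.309) in knock-out cells and -0.17 (-0.40 to 0.06, adjusted p = 0.201) in ΔTAD cells by edgeR's quasi-likelihood test. Between the mutants it was 0.31 (adjusted p = 0.0275), which passed with scaling by library size alone (0.38, adjusted p = 0.00716) and without ΔTAD replicate 3 (0.46, adjusted p = 0.00283). A second identifier with the same symbol, ENSMUSG00000116429, lies wholly within its exons and had 0 counts in every library.

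Cebpz carries a C/EBP name but encodes a protein without a basic leucine zipper, and was not counted as a member. It lay at 202 ± 5.36 CPM in the wild-type, 222 ± 4.61 CPM in the knock-out and 241 ± 6.82 CPM in the ΔTAD libraries (SD, n = 3). The fitted log2 change was 0.13 (adjusted p = 0.00351) and 0.25 (adjusted p = 2.18e-06, edgeR's quasi-likelihood test). The first call was lost with library size alone (adjusted p = 0.135) and without knock-out replicate 2 (0.0142), wild-type replicate 1 (0.0160) or wild-type replicate 3 (0.0147), and the second with library size alone (0.0295). Cebpz lies on chromosome 17, where the median over 746 tested genes was 0.48 in knock-out cells and 0.50 in ΔTAD cells, values larger than those of Cebpz itself.

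Cebpa and Cebpg are neighbours on chromosome 7, 62.7 kb apart on opposite strands, and both rose in both mutants. The 250 bases before their RefSeq start sites (GRCm38.p6) are printed for that reason, in the direction of each gene, with capitals for TATAAA and for CCAAT or its reverse complement ATTGG.
Cebpa (chr7:35119043-35119292, plus strand): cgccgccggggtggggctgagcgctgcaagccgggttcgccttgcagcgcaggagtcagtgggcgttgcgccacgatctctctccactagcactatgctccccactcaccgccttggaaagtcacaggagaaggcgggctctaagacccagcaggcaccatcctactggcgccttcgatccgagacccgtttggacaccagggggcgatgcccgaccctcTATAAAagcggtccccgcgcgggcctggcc
Cebpg (chr7:35056567-35056816, minus strand): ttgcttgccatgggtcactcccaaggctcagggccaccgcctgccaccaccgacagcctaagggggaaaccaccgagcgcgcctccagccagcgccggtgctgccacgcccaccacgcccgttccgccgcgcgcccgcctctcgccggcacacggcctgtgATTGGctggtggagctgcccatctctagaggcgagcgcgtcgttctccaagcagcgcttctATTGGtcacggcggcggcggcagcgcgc
The Cebpa window holds TATAAA 30 bases before the start and no CCAAT, while that of Cebpg holds CCAAT at 89 and 28 bases and no TATAAA. On either strand, TATAAA occurs in 12.4% and CCAAT in 33.8% of 32851 promoter windows of the same length. Neither window holds the palindromic C/EBP site TTGCGCAA (0.164% of windows) or the looser form TTNNGNAA (36.8%).

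The median gene around Cebpa stayed near 0. Within 1 Mb, 20 neighbours including Cebpg were tested, with a median of -0.02 in knock-out cells and 0.01 in ΔTAD cells. Of the 20, 7 were called in knock-out cells, 6 of them lower, and Cebpg was the 1 called higher. Among all tested genes, 45.2% were called in knock-out cells, 22.8% higher and 22.4% lower. In ΔTAD macrophages 2 of the 20 were called higher, Cebpg and Pepd (0.25), a peptidase gene, and 2 lower, beside 49.7% of all genes called. Faap24, a DNA repair gene, fell by 0.84 and 0.76 on the log2 scale and was among the lower ones in both mutants. The highest fitted value, 1.32 for Rgs9bp in knock-out cells, was not called (adjusted p = 0.0104, edgeR's quasi-likelihood test), with 0.302 CPM in wild-type libraries. The 43 tested neighbours of Cebpe had a median of -0.02 in knock-out cells and -0.04 in ΔTAD cells.

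**Figure D3:**
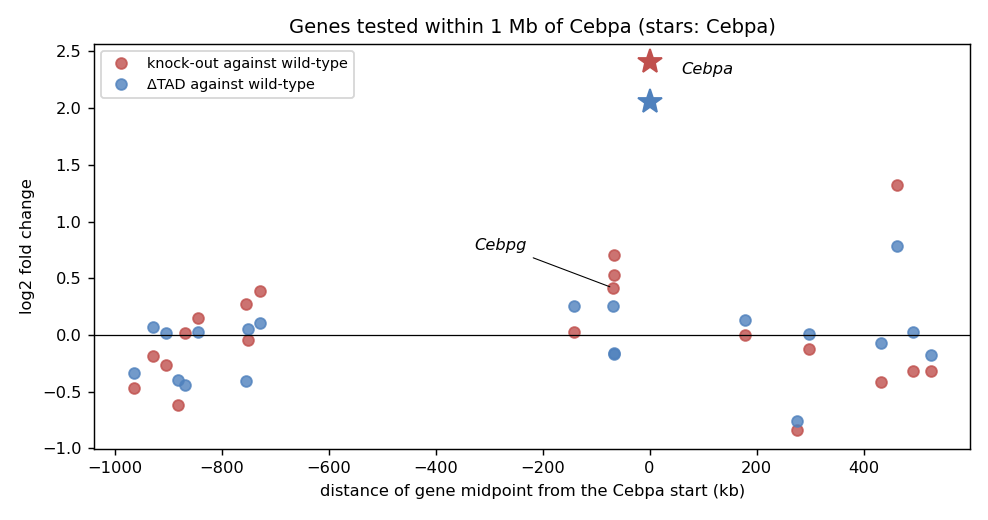
log2 fold change (vertical axis) of genes tested within 1 Mb of Cebpa against the distance of their midpoint from the Cebpa start (kb), in knock-out and ΔTAD against wild-type macrophages, with stars for Cebpa. Cebpa stands at 2.40 and 2.05, and its neighbours lie between -0.84 and 1.32.

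The second question was the order of abundance. Levels of different genes were compared as TPM, which divide counts by the summed exon length of the gene and scale each library to the same total. In wild-type macrophages Cebpb led with 120 ± 4.48 TPM (SD, n = 3), followed by Cebpg with 28.8 ± 0.922, Cebpe with 22.4 ± 1.48, Ddit3 with 17.5 ± 0.271, Cebpd with 5.78 ± 0.676 and Cebpa with 3.84 ± 1.13 TPM. No neighbours in this order overlapped between libraries. The wild-type level of the targeted factor was thus the fifth of 6, and that of Cebpa was the lowest.

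In knock-out macrophages Cebpa moved from the sixth to the fourth place, at 19.4 ± 2.00 TPM. Cebpb led with 113 ± 7.31, followed by Cebpg with 37.1 ± 1.12 and Cebpe with 22.6 ± 1.37 TPM. Ddit3 lay at 18.6 ± 1.61 TPM, overlapping Cebpa, and Cebpd was last at 4.67 ± 0.105 TPM. In ΔTAD macrophages Cebpe took the second place, with 43.0 ± 7.67 TPM behind Cebpb at 96.7 ± 16.6 and above Cebpg at 29.8 ± 3.16 TPM. Cebpa at 13.6 ± 2.18 and Ddit3 at 13.4 ± 3.90 TPM overlapped, and Cebpd was again last at 4.22 ± 0.987 TPM.

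The length chosen changes this order. With the coding length in place of the exon length, Cebpg led in every genotype, at 144, 192 and 168 TPM in wild-type, knock-out and ΔTAD libraries, and Cebpb was second at 81.6, 79.2 and 73.1 TPM. Cebpg has 450 coding bases among 5621 exon bases, the smallest coding share in the family. Cebpa was the lowest member in wild-type macrophages under each length, and in both mutants Cebpd was the lowest.

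The third question was whether the family as a whole was more abundant. The 6 transcripts summed to 202, 194 and 198 TPM in the wild-type, 224, 217 and 205 TPM in the knock-out and 163, 217 and 223 TPM in the ΔTAD libraries. The knock-out libraries lay above the wild-type libraries, and ΔTAD replicate 1, the library rich in ribosomal RNA, was the lowest of all. The mean sum was 198 ± 3.84, 215 ± 9.98 and 201 ± 33.3 TPM (SD, n = 3), and the ΔTAD mean was 220 TPM without replicate 1. In TMM-scaled counts per kilobase, which use the same exon lengths but another scaling between libraries, the sum was 59.7 ± 2.10 in the wild-type, 67.0 ± 2.44 in the knock-out and 69.4 ± 2.58 in the ΔTAD libraries, and every mutant library exceeded every wild-type library. The sum carries no test, because the genes in it were chosen with earlier results known.

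**Figure D4:**
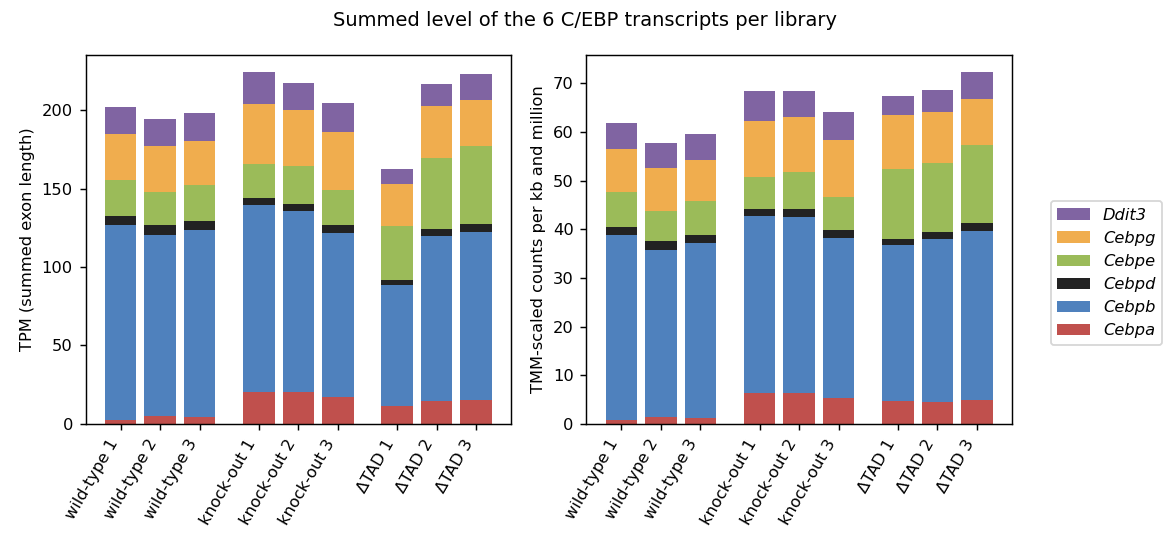
Summed level of the 6 C/EBP transcripts in each of the 9 libraries (vertical axis, left in TPM, right in TMM-scaled counts per kilobase), stacked by gene. Cebpb is the largest part of each bar, Cebpa is visible mainly in the mutants, and ΔTAD replicate 1 is low in TPM (163) but not after TMM scaling (67.3).

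The make-up of the sum also differed between the genotypes, and is given first with exon lengths. Cebpb held 60.5 ± 1.09% of it in the wild-type, 52.5 ± 1.02% in the knock-out and 48.1 ± 0.512% in the ΔTAD libraries (SD, n = 3). The part of Cebpa was 1.95 ± 0.607%, 8.98 ± 0.562% and 6.79 ± 0.0845%, and that of Cebpe was 11.3 ± 0.586%, 10.5 ± 0.795% and 21.4 ± 0.713%. Cebpd held 2.92%, 2.17% and 2.09%. These shares do not depend on the scaling between libraries, but they do depend on the gene lengths. With coding lengths Cebpg was the largest part, at 52.0%, 56.5% and 53.6%, and Cebpb held 29.4%, 23.3% and 23.4%. Cebpa then held 1.36%, 5.77% and 4.76%, and Cebpe 4.78%, 4.06% and 9.04%.

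Ratios within a library show the same shift. The transcript ratio of Cebpb to Cebpa, read from the exon-length scale, was 33.7 ± 12.6 in the wild-type, 5.86 ± 0.265 in the knock-out and 7.08 ± 0.164 in the ΔTAD libraries (SD, n = 3). That of Cebpe to Cebpb was 0.187 ± 0.00796, 0.201 ± 0.0169 and 0.445 ± 0.0177. The summed level of the 4 factors with a transactivation domain, over that of Cebpg and Ddit3, was 3.29 ± 0.113 in the wild-type, 2.87 ± 0.217 in the knock-out and 3.63 ± 0.171 in the ΔTAD libraries, with no overlap between genotypes. With coding lengths it was 0.651 ± 0.0206, 0.558 ± 0.0377 and 0.667 ± 0.0689, and the wild-type and ΔTAD libraries overlapped. With the longest transcript length, the wild-type and knock-out libraries overlapped, at 2.25 to 2.38 and 1.93 to 2.26. This count takes every transcript as if it encoded an intact protein, which is not so for Cebpd in the mutants.

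Genes that act with or around the family were read from 6 lists. Of 17 tested bZIP genes whose products can pair with C/EBP proteins or belong to related families, 6 were called higher and 1 lower in knock-out, and 7 higher and 2 lower in ΔTAD macrophages, with list medians of 0.13 and 0.24. These counts, and those of the lists that follow, stand beside 45.2% of all tested genes called in knock-out (22.8% higher, 22.4% lower) and 49.7% in ΔTAD cells (26.3% higher, 23.4% lower), and the bZIP genes were called about as often as genes in general. Atf3, a stress-induced factor, rose by 1.68 and 1.69 on the log2 scale (adjusted p = 4.37e-16 and 2.84e-16, edgeR's quasi-likelihood test). Fos, a subunit of AP-1, rose by 1.07 in knock-out cells and 2.39 in ΔTAD cells, and the mutants differed (adjusted p = 3.12e-14). Fos lies on chromosome 12, where 541 tested genes had medians of -0.52 and -0.54. Tef rose by 0.73 in both mutants, Junb rose by 0.60 in knock-out and by 0.80 in ΔTAD cells, and Nfil3, a repressor of the related PAR family sites, fell by 0.67 and 1.06. Atf5 was lower by 0.34 and Jun higher by 0.30 in knock-out than in ΔTAD macrophages.

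The list of upstream inducers held 13 tested genes, among them receptors and factors known to raise Cebpb or Cebpd. In knock-out cells 6 were higher and 3 lower, in ΔTAD cells 6 higher and 2 lower, and both list medians were 0.10. Socs3, the feedback inhibitor of IL-6 family signalling, fell by 1.43 in knock-out cells and fell by 1.58 in ΔTAD cells. Tlr4, the LPS receptor, rose by 0.63 and 0.66, and Il6st, the shared signalling chain of IL-6 family receptors, rose by 0.40 and 0.42. Spi1, which encodes PU.1, rose by 0.29 in knock-out and by 0.79 in ΔTAD cells. Rela, which encodes a subunit of NF-κB, rose by 0.26 and 0.52. Myd88, an adaptor of Toll-like receptors, fell by 0.35 in knock-out and rose by 0.14 in ΔTAD cells. Runx1 rose by 0.28 in knock-out cells and had a value of 0.00172 in ΔTAD cells, where it was not called.

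Regulators of C/EBP proteins were called in both directions. Among all genes, 22.8% were called higher and 22.4% lower in knock-out, and 26.3% and 23.4% in ΔTAD cells. Of the 18 regulators tested, 7 were higher and 5 lower in knock-out, and 8 higher and 2 lower in ΔTAD macrophages, with medians of 0.09 and 0.13. Trib3, a pseudokinase of the Tribbles family, rose by 0.70 in knock-out macrophages, at 3.82 ± 0.667 CPM in wild-type against 6.28 ± 1.22 CPM, and its value of 0.34 in ΔTAD cells was not called. Cop1, a ubiquitin ligase that acts with Tribbles proteins on C/EBPα, rose by 0.44 and 0.26. Calr, whose product has been described to bind Cebpa and Cebpb mRNA, fell by 0.64 and 0.36. Mapk3, which encodes ERK1, rose by 0.47 and 0.66, and Mapk14, which encodes a p38 kinase and lies on chromosome 17, rose by 0.33 and 0.54. Rps6ka1 and Pias4 were lower by 0.26 and 0.22, and Trib1 higher by 0.25, in knock-out than in ΔTAD macrophages.

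The integrated stress response, in which ATF4 induces Ddit3, held called genes in both directions. Among all tested genes, 45.2% and 49.7% were called in the 2 mutants. Of 19 tested genes in the list, 9 were higher and 6 lower in knock-out, and 7 higher and 5 lower in ΔTAD macrophages, with medians of 0.12 and 0.04. These genes were called more often than genes in general in both mutants. So were the upstream inducers, the regulators of C/EBP proteins and both lists of C/EBP targets below, and why was not tested. Nupr1 rose by 1.31 and 1.05, from 2.13 CPM in wild-type libraries. Chac1, a target of the pathway, rose by 1.30 in knock-out cells from 2.19 CPM, and its value of 0.58 in ΔTAD cells was not called. Ddit4 fell by 0.93 in knock-out cells, and its value of -0.16 in ΔTAD cells was not called. Bbc3, a pro-apoptotic gene, rose by 0.39 and 0.76. Bcl2l11, another gene of that kind, fell by 0.16 in knock-out cells and fell by 0.60 in ΔTAD cells. Eif2ak2, which encodes the kinase PKR and lies on chromosome 17, rose by 1.04 and 0.90. Eif2s1, which lies on chromosome 12, fell by 0.79 in knock-out cells and fell by 0.66 in ΔTAD cells. The medians of both chromosomes are given above.

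Myeloid genes known as C/EBP targets held the strongest increases among the lists. Of 20 genes, 11 were tested and 7 had at most 3 counts in every library. In knock-out macrophages 6 were higher and 2 lower, in ΔTAD macrophages 7 higher and 1 lower, and the medians were 0.18 and 0.32. Lyz1, which encodes a lysozyme, lay at 6.63 ± 0.919 CPM in the wild-type, 121 ± 3.65 in the knock-out and 229 ± 5.62 CPM in the ΔTAD libraries. Its close copy Lyz2 lay at 1167 ± 61.9, 2114 ± 146 and 4192 ± 76.4 CPM, and reads of such near-identical genes may be divided between them uncertainly. Csf2ra, the GM-CSF receptor chain, rose from 0.494 ± 0.287 CPM in wild-type to 3.31 ± 0.394 in knock-out and 18.8 ± 1.48 CPM in ΔTAD libraries, and Csf3r, the G-CSF receptor, rose by 1.35 and 1.27 on the log2 scale. Gfi1, which encodes a transcriptional repressor, fell by 2.07 and 1.82. Compared directly, 7 of the 11 were lower in knock-out than in ΔTAD macrophages and 0 were higher, where 19.1% of all genes were called lower. Of the 8 macrophage markers, 5 were also called lower there, among them Lyz2, Spi1 and Csf1r, which stand in both lists, and 3 (Cd68, Itgam and Ptprc) were not called. The part of the other markers in this count was not tested.

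Inflammatory C/EBP targets split. Of 18 genes, 9 were tested and 8 had at most 3 counts in every library, in cells that received no stimulus. In knock-out macrophages 4 were higher and 4 lower, in ΔTAD macrophages 4 higher and 5 lower, and the medians were 0.09 and -1.21. Ccl2, a monocyte chemokine, lay at 34.7 ± 2.99 CPM in the wild-type, 0.727 ± 0.278 in the knock-out and 0.475 ± 0.0880 CPM in the ΔTAD libraries. Ptgs2, which encodes cyclooxygenase-2, lay at 21.1 ± 0.359, 0.987 ± 0.544 and 0.365 ± 0.216 CPM. Saa3 fell by 0.996 in knock-out cells and fell by 1.21 in ΔTAD cells. Ccl3 fell by 0.25 and fell by 1.88. Cxcl2 rose by 0.41 in knock-out cells and fell by 1.58 in ΔTAD cells. Both of these chemokines were higher in knock-out than in ΔTAD macrophages, by 1.63 and 1.99. Il1rn rose by 0.88 in ΔTAD cells, and its value of 0.09 in knock-out cells was not called. Tnf rose by 0.87 and 0.38 and lies on chromosome 17.

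**Figure D5:**
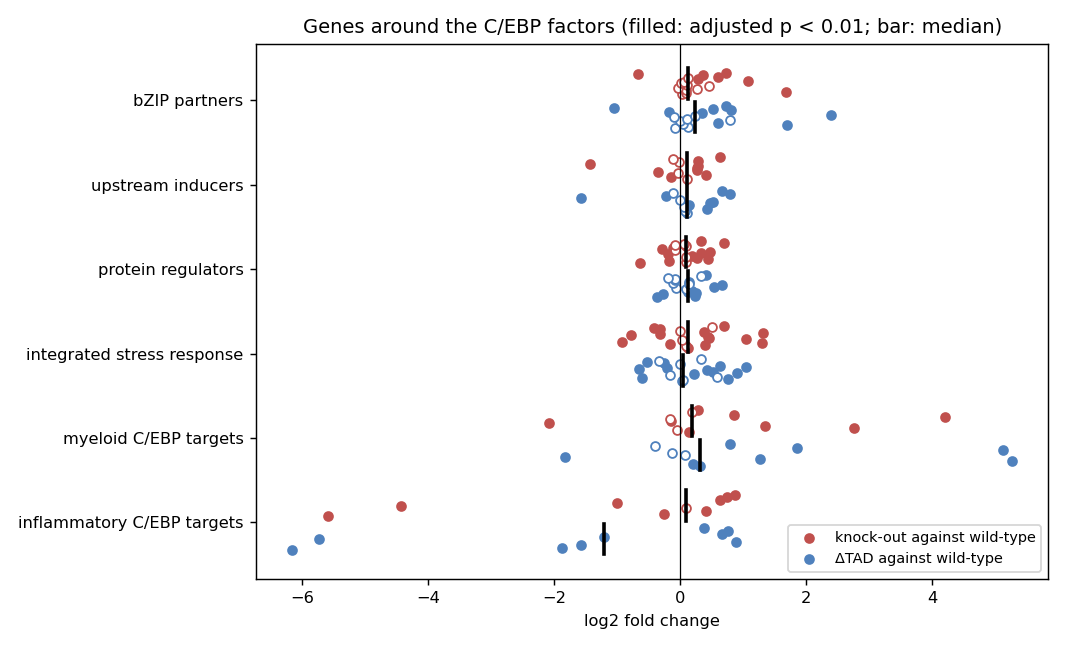
log2 fold change (horizontal axis) of every tested gene of the 6 lists in knock-out and ΔTAD against wild-type macrophages, with filled points for an adjusted p under 0.01 and a vertical bar for the list median. The widest spread is among myeloid and inflammatory targets, from -6.16 for Ccl2 to 5.27 for Csf2ra in ΔTAD macrophages.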

How the data were processed

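RNA of 9 libraries of unstimulated RAW264.7 cells was measured. Libraries were made by the authors from ribosome-depleted RNA and sequenced as single reads. Trimming was by Trimmomatic, alignment to GRCm38 by HISAT2 and counting by HTSeq. The deposited values are whole-number counts per Ensembl gene, without normalization or filter, and the version numbers of these tools differ between the sources used here. The mode and strand setting of the counting are not given in the sources used here, so values of overlapping genes and close copies are uncertain. The share of a library's records that fell on genes was 46.7% to 53.2%. Tally lines that name no gene were left out. The detection floor was set at 3 counts, 0.143 to 0.210 CPM, and covers counting error only.

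Genotypes and replicate numbers came from the labels. The design text speaks of 3 independent clones, but nothing ties a library to a clone, so p-values measure the spread between these libraries, which may be technical. No libraries agreed within sampling noise.

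Counts were analysed in R 4.3.3 with edgeR 4.0.16: filterByExpr (minimum count 10, minimum total 15), TMM, and 1 quasi-likelihood model with a mean per genotype over all 9 libraries. Genes with a Benjamini-Hochberg adjusted p under 0.01, the threshold of the study, were called. On simulated counts of knock-out against wild-type with 14098 genes, 171 of 200 genes changed 2-fold were called (85.5%), and 4 unchanged ones. Only those 200 genes were changed there, whereas 45.2% of genes were called in the data, so these rates need not hold for the data. TPM were computed from the counts and summed exon lengths of GENCODE for GRCm38, which held 55227 of the 55487 identifiers, and 55141 identifiers matched a symbol. Promoter windows are RefSeq sequences, printed for Cebpa and Cebpg; the table also matched Cebpb and Ddit3.

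The members, the 6 lists and the tests were chosen with earlier results of these data known. Named were the 6 members, Cebpz, and in each list and comparison up to 4 called genes with the largest change and at least 1 CPM in the higher genotype. Some genes stand in more than 1 list, and 1 gene that this rule names is not reported here. Also named were the 3 genes averaging at least 1 CPM whose profile was most like each called member. Genes beside Cebpa and those that overlap a member were named after their values were seen. The alternatives comprised limma-voom (limma 3.58.1), DESeq2 1.42.0, other scalings, filters, thresholds, gene lengths and sums, a replicate block, and leaving out each library. Figures were drawn with matplotlib 3.10.9.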

Additional observations from a re-analysis of the deposited data

How the results depend on the processing

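Of the alternatives to edgeR's analysis, 18 were run for each gene and comparison. Cebpa and Cebpg in knock-out, and Cebpa and Cebpe in ΔTAD against wild-type macrophages, were called in all of them, with log2 fold changes of 2.18 to 2.60, 0.39 to 0.44, 1.82 to 2.24 and 1.05 to 1.18. The number of C/EBP genes called in knock-out against ΔTAD macrophages was 1 with DESeq2 and 1 to 3 when a library was left out, with 1 without knock-out replicate 1, knock-out replicate 2 or ΔTAD replicate 2. Values near 0 changed sign. When a library was left out, Cebpb in knock-out ranged from -0.0682 to 0.00836, positive without wild-type replicate 1, and Cebpe from -0.00188 to 0.11, negative without wild-type replicate 2. For Cebpd between the mutants it was 0.00168 with DESeq2, 0.0538 with library size only, 0.0131 with only the 2 genotypes compared and -0.0577 to 0.0899 when a library was left out, positive without knock-out replicate 1 (0.0195) or ΔTAD replicate 3 (0.0899). None of these was called. At an adjusted p under 0.05, 11 of 17 tested bZIP genes were called in knock-out macrophages. The share of all genes at that threshold is not given here. Of 18 tested protein regulators, 4 were called higher and 8 lower in knock-out against ΔTAD macrophages, where 33.0% of all genes were called. With DESeq2, 7 regulators were called between the mutants, where 3947 of 14312 genes were called.

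With library size only, the share of called genes that were higher went from 52.9% to 39.6% in ΔTAD against wild-type and from 42.1% to 69.0% in knock-out against ΔTAD macrophages. ΔTAD replicate 1, rich in ribosomal RNA, has the lowest TMM factor (0.888). With TMM scaling and without this library, the share was 48.5% in ΔTAD against wild-type and 50.2% in knock-out against ΔTAD macrophages. Its part in the shifts with library size only was not tested.

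The order of abundance kept 4, 3 and 4 of 6 places in wild-type, knock-out and ΔTAD libraries with the longest transcript length, 2, 2 and 1 with coding length, and 6, 4 to 6 and 4 to 6 when a library was left out, with 4 without knock-out replicate 2 or ΔTAD replicate 1. The summed level was 173 and 190 TPM in wild-type and knock-out libraries with the longest transcript, 278, 339 and 313 TPM in the 3 genotypes with coding length, and 152, 160 and 158 TPM without Cebpg and Ddit3. In TMM-scaled counts per kilobase it was 59.7, 67.0 and 69.4. Leaving out a library gave 196 to 200, 211 to 221 and 190 to 220 TPM. The ratio of sums to wild-type was 1.22 with coding length in knock-out. With the TMM-scaled CPM of each gene as a share of its wild-type mean, it was 1.75 in knock-out and 1.69 in ΔTAD libraries. Every gene then weighs the same, and Cebpa, the lowest in wild-type libraries, changed the most (fitted 5.29-fold and 4.15-fold). Without ribosomal RNA genes, an alternative chosen after seeing the data, the sums were 199.8, 218 and 212 TPM.

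Replicate numbers did not pair the libraries, with correlations of deviations between -0.07 and 0.02. With the replicate number as a block, 6279, 6900 and 4465 genes were called in the 3 comparisons, against 6468, 7115 and 4730 without it, and 2, 3 and 3 C/EBP genes. The block changed no call of a C/EBP gene.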

Other observations

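Other genes followed the called members closely over the 9 libraries, measured as Pearson's r of log2 CPM between genes. The profiles most like that of Cebpa were Pax6 (r = 0.994), Sos1 (0.992) and Tmod1 (0.991), and 419 tested genes had r over 0.95. For Cebpe these were Srf (0.997), Dnmt3a (0.991) and Acaa1a (0.989), with 144 genes over 0.95. For Cebpg they were Ampd3 (0.977), Faim (0.972) and Ctsb (0.970), with 49 genes over 0.95. The 9 libraries fall into 3 genotypes, whose differences the correlations carry, and they are a description only. Sos1 and Srf lie on chromosome 17 and Dnmt3a on chromosome 12, and the medians of both chromosomes are given above. The size of change differed widely among these genes: in knock-out macrophages, the log2 fold change of Pax6 was 0.47 and that of Tmod1 was 1.87, beside 2.40 for Cebpa.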
